A study of Mus musculus with 4 samples.

Results

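The genes described here encode the proteins of the cytosolic ribosome, and the data are the places near them that were bound in a chromatin immunoprecipitation of the transcription factor ATF4. Members were chosen by gene symbol alone: a peak belonged to the set when its assigned gene was an Rpl or Rps gene, Rplp0, Rplp1, Rplp2 or Rpsa. Pseudogenes and the Rps6k kinases were left out. This gave 49 of the 4544 peaks in the list, at 43 of the 85 ribosomal protein genes in the RefSeq gene table. Over all protein-coding genes, 12.9% had a peak of any class.

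The peaks came from mouse regulatory T cells, CD4+ cells that restrain immune responses, enriched as CD4+CD25+ cells from spleen and, per the series' design, lymph nodes. The 2 ATF4 ChIP samples were set against 2 input samples. Cells were fixed with 1% formaldehyde for 10 min, with 24000000 cells per replicate, and the labels name no strain, age or genotype. Promoter peaks were assigned to 4 of 5 regulatory T cell markers (Foxp3, Il2ra, Ctla4 and Ikzf2, but not Cd4) and to 0 of 5 markers of other cells. Peaks show binding and not expression, so this does not settle which cells were present. All samples come down to 1 peak list, in mm10 coordinates, with no value per sample and no depth. Peaks and genes are not replicates, so no difference below has a replicate error or a test.

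A ribosome has a small subunit, which reads the mRNA, and a large subunit, which joins the amino acids. Their proteins are made in matched amounts, and mammalian ribosomal protein genes share a compact promoter whose transcripts begin with a C followed by a run of pyrimidines, the 5′ terminal oligopyrimidine (TOP) start. That start places their translation under the kinase mTORC1. ATF4 is itself made when translation initiation is restrained. It binds DNA as a dimer with related leucine zipper proteins, with C/EBP partners on a composite element and with other partners on the cAMP response element (CRE).

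Promoter windows from RefSeq were searched for these elements. A window runs from 250 bases before a listed start to 50 bases after it, on build GRCm38.p6. Windows were found for 65 of the 85 genes, 77 windows in all, and several genes had more than 1. The sequences below, from windows of genes with a promoter peak, are all the ribosomal protein windows that held a full CRE. Each is read along its own gene's strand, with the 8 bases of the CRE in capitals.
Rps9 (chr7:3703954-3704021, + strand): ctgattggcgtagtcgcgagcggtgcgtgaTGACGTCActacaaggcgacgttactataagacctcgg
Rpl13 (chr8:123102296-123102349, + strand): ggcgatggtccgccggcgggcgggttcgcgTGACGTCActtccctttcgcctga
Rpl18 (chr7:45717962-45718029, + strand): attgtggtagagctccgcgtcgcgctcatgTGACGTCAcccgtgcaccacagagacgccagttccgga
Rpl26 (chr11:68901402-68901469, + strand): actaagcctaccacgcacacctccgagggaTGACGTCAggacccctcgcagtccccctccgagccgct
Rpl27a (chr7:109519068-109519135, + strand): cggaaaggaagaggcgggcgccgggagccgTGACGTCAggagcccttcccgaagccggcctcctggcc

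The full CRE, TGACGTCA, lay in 5 of 35 windows of ribosomal protein genes with a promoter peak (14.3%), and in 0 of 42 windows of ribosomal protein genes without one. It lay in 3.67% of windows of other protein-coding genes with a promoter peak, and in 2.23% of all 21262 protein-coding windows. Its first 5 bases, TGACG, which every full CRE contains on both strands, lay in 21 of the 35 windows (60.0%) and in 11 of the 42 (26.2%). The shares were 34.4% of windows of other genes with a promoter peak and 23.6% of all windows. By gene, this was 20 of 30 ribosomal protein genes with a promoter peak and 11 of 35 without. Genes without one were defined by the authors' assignment. Of these 11, Rps13, Rps27 and Rps28 had a peak over their start that was assigned to another gene.

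The composite element that ATF4 shares with C/EBP factors, TGATGNAA on either strand, was in 0 of the 77 ribosomal protein windows. It was in 3.6% of all windows and in 3.22% of windows of other genes with a promoter peak. At so low a share few matches would be looked for in 77 windows, so the 0 alone says little. For comparison, the window of Asns, the asparagine synthetase gene and a known ATF4 target, holds it, in capitals in the line below.
Asns (chr6:7693210-7693262, − strand): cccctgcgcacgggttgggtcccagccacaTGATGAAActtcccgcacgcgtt
A match in these letters is a description of the sequence and not a bound site, and the absence of one says only that the window lacks those letters. Each window ends 50 bases after its start, and DNA further downstream of that start was not searched in it. Of 23 large subunit promoter peaks, 13 had their summit 50 to 99 bp downstream of the authors' transcription start.

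The 5 genes with a CRE did not have the stronger peaks. Their strongest promoter peaks had a median fold enrichment of 2.66, from 1.88 at Rpl26 to 2.95 at Rpl27a, against a median of 2.82 over 25 genes whose windows lacked it. The CRE lay inside the peak at Rps9, Rpl18 and Rpl27a and outside it at Rpl13 and Rpl26. Between CRE and summit were 90 bp at Rpl18, 92 bp at Rps9, 118 bp at Rpl13, 172 bp at Rpl27a and 192 bp at Rpl26. In each of the 5 genes the CRE was upstream of the start of its window and the summit downstream of that start. At Rps9 the authors' TSS was another start, at 3703954. Both the CRE and the summit, at 125 bp, lay downstream of that TSS.

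**Figure D1:**
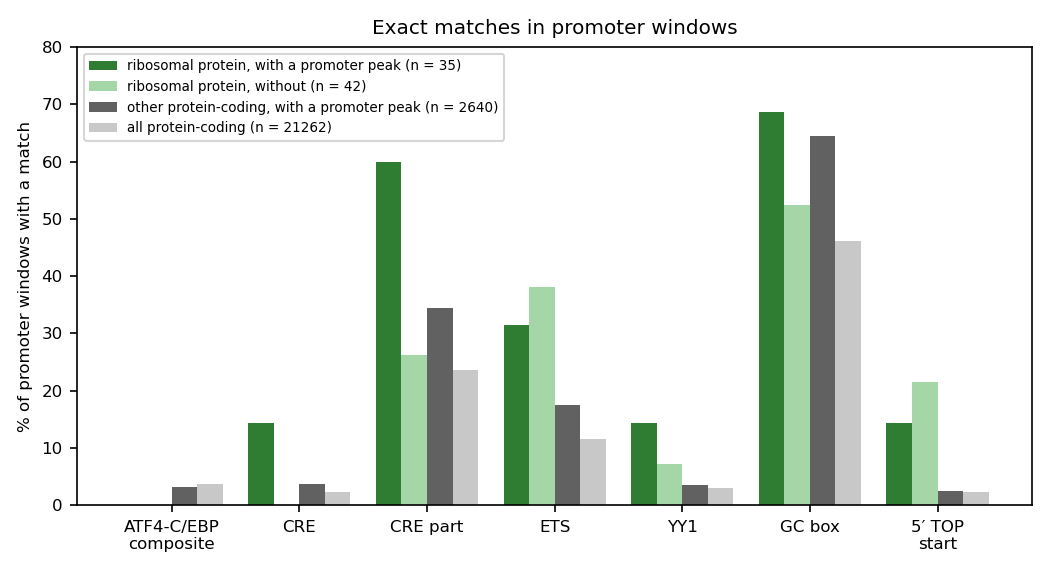
Share of RefSeq promoter windows (y axis, percent) with an exact match to each element (x axis), for ribosomal protein genes with and without a promoter peak, other protein-coding genes with one, and all protein-coding genes. The bars for the CRE and its part are highest for ribosomal protein genes with a promoter peak, at 14.3% and 60.0%, and those for the composite element are at 0 for ribosomal protein genes.

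Other elements were searched in the same windows. CCGGAAG, bound by ETS factors and long known from ribosomal protein promoters, lay in 31.4% of windows of ribosomal protein genes with a promoter peak and in 38.1% of those without, against 11.6% of all windows. AAGATGGC, bound by YY1, was in 14.3% and 7.14%, against 3.05%, and the GC box GGGCGG in 68.6% and 52.4%, against 46.2%. CCAAT was in 28.6% and 31.0%, against 38.2%. TATAAA, read on the gene's strand alone, was in 11.4% and 7.14%, against 8.26%. The E-box CACGTG was in 11.4% and 9.52%, against 7.84%. Several genes had more than 1 window, so these shares are not shares of genes. By gene, AAGATGGC was in 3 of 30 ribosomal protein genes with a promoter peak and 3 of 35 without. The GC box was in 19 of 30 and 21 of 35, and CCGGAAG in 11 of 30 and 15 of 35. In windows of other protein-coding genes with a promoter peak, CCGGAAG was in 17.5%, AAGATGGC in 3.52% and GGGCGG in 64.5%. There CCAAT was in 34.9%, TATAAA in 6.55% and CACGTG in 9.62%. The median GC content was 58.7% in windows of ribosomal protein genes with a promoter peak and 57.8% in those without. It was 62.0% for other genes with a promoter peak and 56.3% for all windows.

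A strict TOP start, a C at the listed start followed by 4 or more pyrimidines, was in 5 of the 35 windows with a promoter peak (14.3%) and in 9 of the 42 without (21.4%), against 2.21% of all windows. In windows of other protein-coding genes with a promoter peak the share was 2.5%. Such a match depends on the exact base at which RefSeq starts the transcript. The lines below show 15 bases before the start and 15 from it, with the pyrimidine run in capitals, for 2 genes with a promoter peak (Rps6 and Rpl15) and 2 without (Rplp2 and Rpl35).
Rps6 (chr4:86857353-86857382, − strand): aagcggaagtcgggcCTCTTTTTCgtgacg
Rpl15 (chr14:18270972-18271001, − strand): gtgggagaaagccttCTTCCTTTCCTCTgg
Rplp2 (chr7:141447636-141447665, + strand): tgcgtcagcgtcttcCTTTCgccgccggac
Rpl35 (chr2:39005117-39005146, − strand): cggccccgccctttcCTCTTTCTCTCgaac
These 4 genes were picked from those with a strict TOP start, so the run they share is not a result.

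Many ribosomal protein genes had a peak at the promoter, and most of those peaks were of low fold enrichment. A peak of the authors' Promoter class, which at these genes came within 1 kb of the transcription start site (TSS) in all cases, was assigned to 41 of 85 genes (48.2%), against 11.3% of all protein-coding genes. The background includes genes silent in T cells. With a −log10 q of at least 3, 33 of 85 remained (38.8%), against 9.51%. A promoter peak above the list's median fold enrichment was seen at 13 of 85 (15.3%), against 5.46%. A peak lay over the RefSeq gene start itself, whatever gene it was assigned to, at 30 of the 76 genes with a known strand (39.5%), against 6.85%. Within 500 bp of that start one was found at 43 of 76 (56.6%), against 12.2%. For some of the 76 genes the strand came only from an assigned peak, which raises these shares. With the strand from the promoter windows alone, a peak lay over the start at 23 of 65 (35.4%), against 5.88%. Within 500 bp of it the count was 33 of 65 (50.8%), against 10.4%.

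Fold enrichment is the authors' ratio of signal over background at the summit. Over the strongest promoter peak of each of the 41 genes it ranged from 1.82 to 5.06 with a median of 2.83 (quartiles 2.46 and 3.48). For 2435 other protein-coding genes the median was 3.25 (quartiles 2.7 and 4.09) and the highest 38.4, at Chac1, an ATF4 target that degrades glutathione. Of the 42 ribosomal promoter peaks, 0 were among the strongest 10.0% of the list, which begins at a fold enrichment of 5.34. By −log10 q the medians were 6.45 for the 41 genes and 6.88 for the others.

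**Figure D2:**
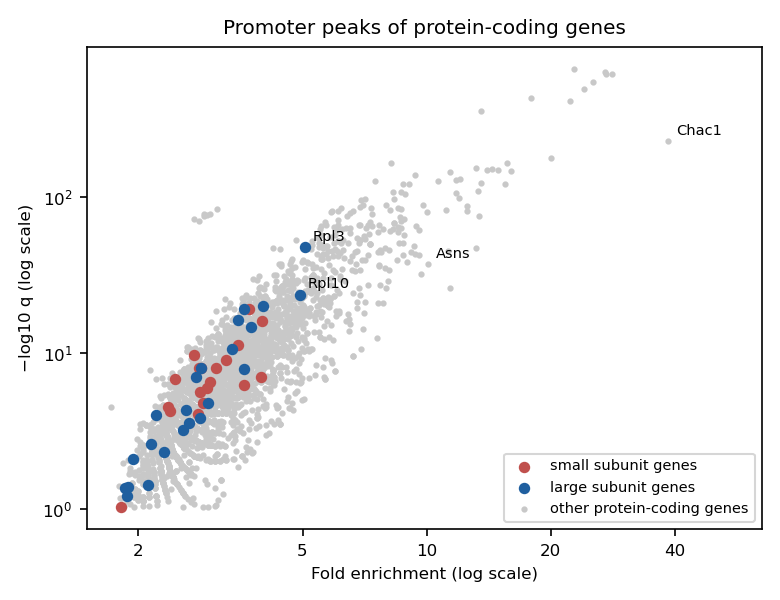
Each point is a promoter peak of a protein-coding gene, by fold enrichment (x axis, log scale) and −log10 q (y axis, log scale), with small subunit genes in red, large subunit genes in blue and other genes in grey. The ribosomal peaks lie between 1.82 and 5.06 in fold enrichment, towards the left, while their −log10 q, with a median of 6.34 against 6.45 for the others, spans much of the cloud, and Rpl3 and Rpl10 are highest among them.

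Among small subunit genes, 18 of 32 had a promoter peak (56.2%), and among large subunit genes 23 of 53 (43.4%). With a −log10 q of at least 3 the counts were 17 of 32 (53.1%) and 16 of 53 (30.2%). Large subunit genes include more minor paralogs, copies such as Rpl3l and Rpl10l that stand in for the main gene in certain tissues. Of 8 such paralogs, 1 had a promoter peak, Rpl22l1 at 2.61, the paralog of Rpl22, whose product is needed for normal T cell development in mice. Rpl22 itself had none. Without these 8, promoter peaks were assigned to 18 of 31 small subunit genes (58.1%) and 22 of 46 large subunit genes (47.8%).

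The strength of the peaks spread more widely in the large subunit. Fold enrichment ran from 1.82 to 3.98 with a median of 2.9 over 18 small subunit genes, and from 1.86 to 5.06 with a median of 2.75 over 23 large subunit genes. The 3 promoter peaks with a fold enrichment of at least 4 all belonged to large subunit genes, and so did 7 of the 8 promoter peaks with a −log10 q under 3.

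**Figure D3:**
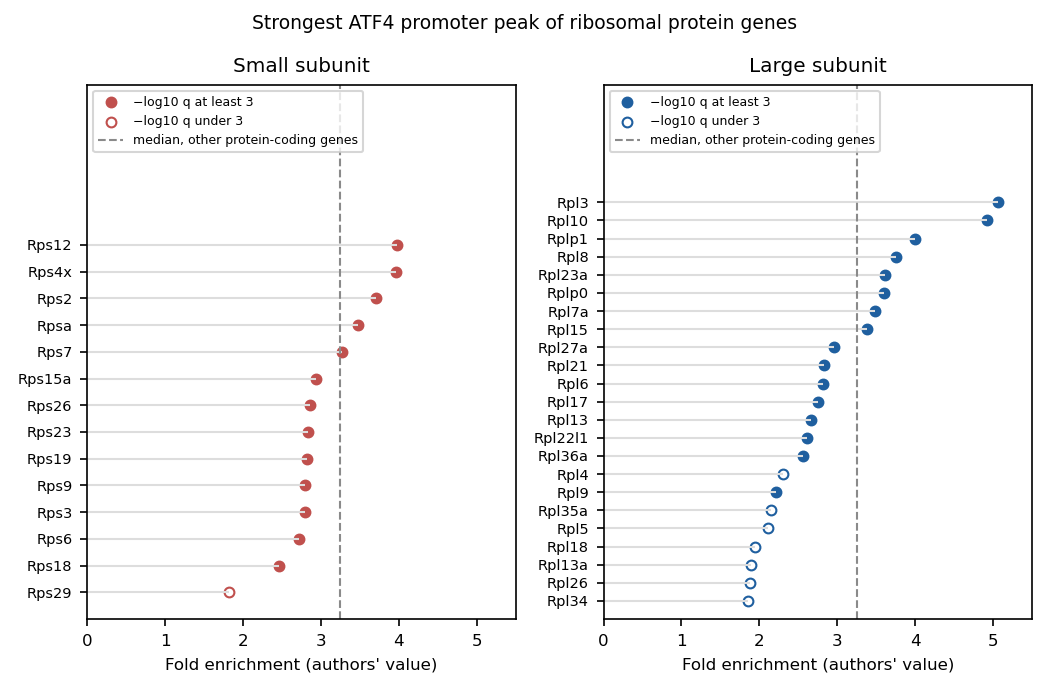
Fold enrichment (x axis) of the strongest promoter peak of 14 small subunit genes (left) and 23 large subunit genes (right), with filled points for a −log10 q of at least 3. The dashed line is the median of other protein-coding genes, 3.25, and 5 of the small and 8 of the large subunit genes shown lie to the right of it.

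In the small subunit, the strongest promoter peak was that of Rps12, at 3.98 (chromosome 10, 23787059 to 23787577; −log10 q 15.9). The X-linked gene Rps4x followed at 3.97 (chromosome X, 102189169 to 102189338), with its summit 6 bp from the TSS (−log10 q 7.04). Rps2, whose product lines the channel where mRNA enters, had 3.70 and the highest −log10 q of the small subunit, 19.0. Its peak spanned 650 bp (chromosome 17, 24719723 to 24720372), the widest ribosomal peak, and also covered the start of the noncoding gene Snhg9. Rpsa, whose product also serves as the laminin receptor precursor, had 3.48. Rps7, whose product binds the p53 regulator MDM2, had 3.27.

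Rps26 and Rps19, which are mutated in the human red cell disorder Diamond-Blackfan anaemia, had promoter peaks of middle rank, at 2.87 and 2.82. Rps6, whose product is phosphorylated downstream of mTORC1, had 2.73 with its summit on the TSS itself and a −log10 q of 9.60. Among the weakest were Rps18 at 2.46 and Rps29 at 1.82, the last with a −log10 q of 1.03, which ranked 4536 of the 4544 peaks.

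In the large subunit, Rpl3, whose product reaches towards the peptidyl transferase centre, had the strongest peak, at 5.06 (chromosome 15, 80083161 to 80083714). It also had the highest −log10 q of the ribosomal set, 47.6, and ranked 528 by fold enrichment and 266 by −log10 q in the list. Rpl10, whose product is among the last to join the large subunit, had 4.92 (chromosome X, 74270765 to 74271067; −log10 q 23.6). The stalk, which recruits the elongation factors, had peaks at 2 of its 3 genes: Rplp1 at 4.00 and Rplp0 at 3.60, but none at Rplp2. Rpl8 followed Rplp1 at 3.75, and Rpl23a, whose product sits at the exit of the nascent chain tunnel, had 3.61.

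At the other end, Rpl13a, whose product in human cells can leave the ribosome to silence mRNAs of inflammation, had 1.89. Rpl26 had 1.88 and Rpl34 1.86. Their −log10 q values were 1.37, 1.20 and 1.35, and that of Rpl26 corresponds to a q over 0.05, as does that of Rps29. Rpl5, which with Rpl11 carries the smallest ribosomal RNA and restrains MDM2, had 2.11 (−log10 q 1.42), and no peak was assigned to Rpl11.

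Other members lay between these ends. In the small subunit, Rps23, whose product sits at the decoding centre, had 2.83, and Rps3, whose product in human T cells also joins NF-κB complexes, had 2.80. In the large subunit, Rpl7a at 3.48 and Rpl15 at 3.38 were the other genes above the median of other protein-coding genes. Rpl21 had 2.83, Rpl6 had 2.82, Rpl13 had 2.66 and Rpl36a had 2.56. Rpl17 and Rpl4, whose products line the nascent chain tunnel or its exit, had 2.75 and 2.31. Rpl9 had 2.21, Rpl35a 2.15 and Rpl18 1.94. A −log10 q of at least 10 was reached by 3 small and 7 large subunit genes. Together these were 24.4% of the 41 genes with a promoter peak, against 34.9% of 2435 other protein-coding genes with one. The median width of promoter peaks was 323 bp for small and 247 bp for large subunit genes, against 265 bp for others.

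No peak was assigned to 42 of the genes. In the small subunit they included Rps3a1, Rps10, Rps13, Rps14, Rps15, Rps16, Rps20, Rps21, Rps24, Rps25, Rps27, Rps27a, Rps27l and Rps28. In the large subunit they included Rpl3l, Rpl7, Rpl7l1, Rpl10a, Rpl10l, Rpl11, Rpl12, Rpl14, Rpl22, Rpl23, Rpl24, Rpl27, Rpl29, Rpl30, Rpl31, Rpl32, Rpl32l, Rpl35, Rpl36, Rpl36al, Rpl37, Rpl37a, Rpl38, Rpl39, Rpl39l, Rpl41 and Rplp2.

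Not all of these promoters were bare, since a start can lie close to that of a neighbour and a peak is assigned to only 1 gene. Peaks assigned to another gene reached within 500 bp of the start of 7 genes with no promoter peak of their own. That of Rps27 was assigned to Rab13 and had a fold enrichment of 4.59 (chromosome 3, 90213348 to 90213717; −log10 q 28.7), above every peak assigned to a small subunit gene. Rps20 had a peak assigned to Gm32823 at 3.98, Rps13 one assigned to Gm10589 at 3.15 and Rps28 one assigned to Ndufa7 at 2.36. A peak assigned to Clhc1 at 2.05 ended 3 bp from the end of Rps27a. For Rps20 and Rps27a no table gave the strand, so either end was taken.

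In the large subunit, the peak at the start of Rpl12 was assigned to Lrsam1, at 3.25, and that of Mgat2, at 5.31, ended 51 bp from the start of Rpl36al. Counting such peaks, a peak stood at the start of 48 of 85 genes (56.5%), against 12.9% of protein-coding genes. These were 23 of 32 small subunit genes (71.9%) and 25 of 53 large subunit genes (47.2%).

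The reverse also occurred. In 7 of the 42 promoter peaks another gene's start lay within 500 bp: Snhg9 at Rps2, Vps52 at Rps18, Sphk2 at Rpl18, Gm32950 at Rpl22l1, Iqcg at Rpl35a, Med22 at Rpl7a and Lias at Rpl9. Which of the neighbours such a peak belongs to cannot be told apart here. Only starts with a promoter window were looked for, so 7 is a minimum. The same share over all promoter peaks is not given here.

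Most summits of the large subunit genes lay downstream of the TSS, many of them in a narrow zone. Of 23 large subunit promoter peaks, 13 had their summit 50 to 99 bp downstream of the TSS that the authors used (56.5%). This held for 2 of 19 small subunit peaks (10.5%), and for 18.5% of all promoter peaks of protein-coding genes. Within 60 to 84 bp, a window chosen after the positions were seen, lay 11 of the 23 large subunit summits (47.8%) and 2 of the 19 small subunit summits (10.5%), against 9.87% of 2807 other peaks.

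The large subunit genes in that window included Rpl26 at 62 bp, Rpl23a at 63, Rplp0 at 65, Rpl22l1 and Rpl36a at 66, Rpl10 at 67, Rpl6 at 68, Rpl8 at 70, Rpl5 at 71, and Rpl3 and Rpl27a at 79. They ranged from the strongest to nearly the weakest of the set. The large subunit median was 63 bp downstream (quartiles 7.5 and 69). The small subunit median was 6 bp downstream, with quartiles at −126 and 58.5 bp, where negative positions are upstream. For other protein-coding promoter peaks the median was 46 bp downstream, with quartiles at −51 and 122 bp.

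**Figure D4:**
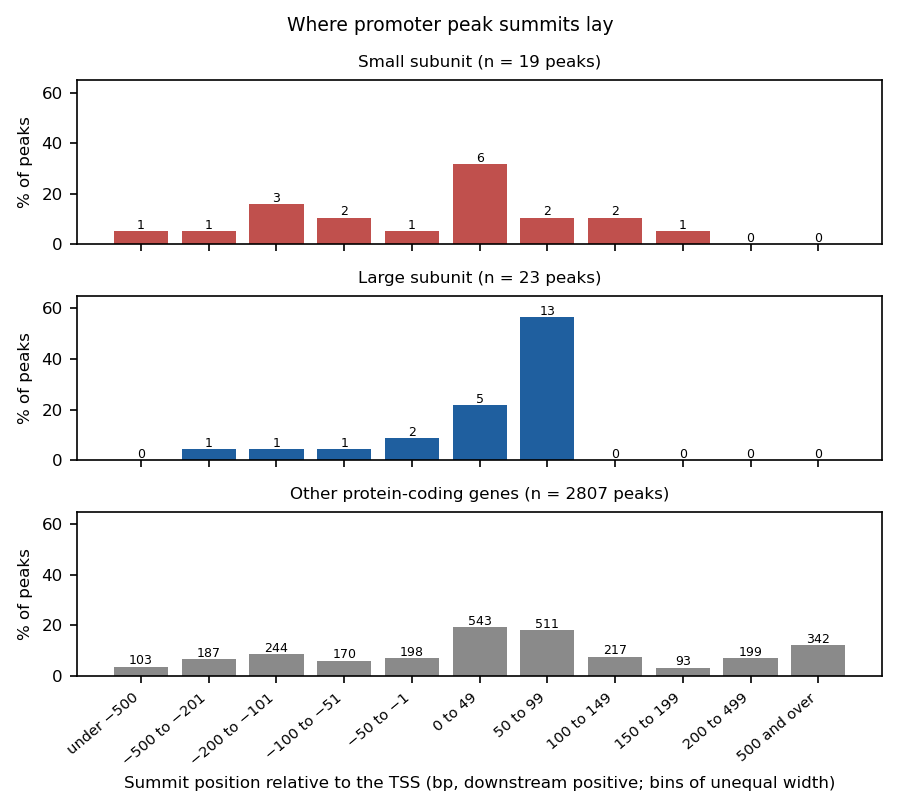
Share of promoter peaks (y axis, percent; counts above the bars) by summit position relative to the TSS (x axis, bp, bins of unequal width), for small subunit genes, large subunit genes and other protein-coding genes. The large subunit bar at 50 to 99 bp holds 13 of 23 peaks, the small subunit bar there 2 of 19.

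Small subunit summits lay upstream of the TSS in 8 of 19 peaks (42.1%), large subunit summits in 5 of 23 (21.7%), and those of other genes in 32.1%. Those upstream included Rps2 at −195 bp and Rps18 at −193 bp. At Rps2 and Rps18 the neighbours named above start on that side. Among large subunit genes, Rpl13a at −288 bp and Rpl21 at −102 bp were the most distant. In promoter peaks, 0 ribosomal summits lay 200 bp or more downstream, where 7.09% of other peaks lay at 200 to 499 bp and 12.2% further. Measured from the RefSeq gene start, the medians were 40 bp for small and 68 bp for large subunit genes, closer together than from the authors' TSS.

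By the authors' assignment, a second peak was seen at 5 of 18 small subunit genes with a peak (27.8%) and at 0 of 25 large subunit genes with one. Together this is 11.6% of ribosomal protein genes with a peak, against 16.6% of all protein-coding genes with one. At 4 of the 5, Rps6, Rps9, Rps15a and Rps19, the further peaks lay at the other end of the gene.

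Rps6 had a Distal Intergenic peak at 3.66 (chromosome 4, 86853317 to 86853591), with its summit 583 bp past the 3′ end of the gene. Rps9 had one at 3.21, 1325 bp past its end, and Rps19 one at 2.60, 964 bp past its end. Rps15a had 3 peaks: 2.94 at the promoter, 3.18 in the 3′ UTR at −438 bp from its end, and 4.11 at 1216 bp past it. At Rps6, Rps9 and Rps15a the distal peak had a higher fold enrichment but a lower −log10 q than the promoter peak, with 2.74 against 9.60 at Rps6. In the large subunit, Rpl19 and Rpl28 had a single peak each, and it too lay past the gene, at 2.59 and 789 bp for Rpl19 and 3.53 and 1623 bp for Rpl28.

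This led to a count, chosen after the data were seen, of summits up to 2 kb past the 3′ end of a gene, whatever gene the peak was assigned to. Of 76 ribosomal protein genes with a known strand, 14 had one (18.4%), against 2.35% of protein-coding genes. Leaving out summits within 1 kb of any listed start, 11 of 76 did (14.5%), against 1.23%. These were 7 of 29 small subunit genes (24.1%) and 4 of 47 large subunit genes (8.51%). With the strand from the promoter windows alone, so not through an assigned peak, 10 of 65 ribosomal protein genes had one (15.4%), against 1.06%. Among genes with a promoter peak, it was 8 of 41 ribosomal protein genes (19.5%), against 4.76% of 2435 others. Expression, which was not measured here, and gene density were not matched, and their part in this was not tested.

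The 12 peaks behind that count had a median fold enrichment of 3.57, a median −log10 q of 2.91 and a median distance of 844 bp past the end, with 1623 bp the farthest. Of these, 6 carried the symbol of the gene itself and 6 that of another. The strongest, at 6.12 (chromosome 9, 120133273 to 120133786; −log10 q 8.62), lay 1193 bp past the end of Rpsa and was assigned to Gm5922. It was stronger than any ribosomal promoter peak, and a further peak at 3.18, assigned to Snora62, lay 583 bp past the same end. A peak at 4.41 assigned to Snord83b lay 739 bp past Rpl3, and one at 4.09 assigned to Snora64 lay 567 bp past Rps2. Rps10, with no peak at its promoter, had one at 2.50 at 900 bp, assigned to Gm15420.

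With a −log10 q of at least 3, 6 of the 76 genes remained (7.89%), against 0.782% of protein-coding genes at the same limit. These were 3 of 29 small subunit genes (10.3%) and 3 of 47 large subunit genes (6.38%).

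**Figure D5:**
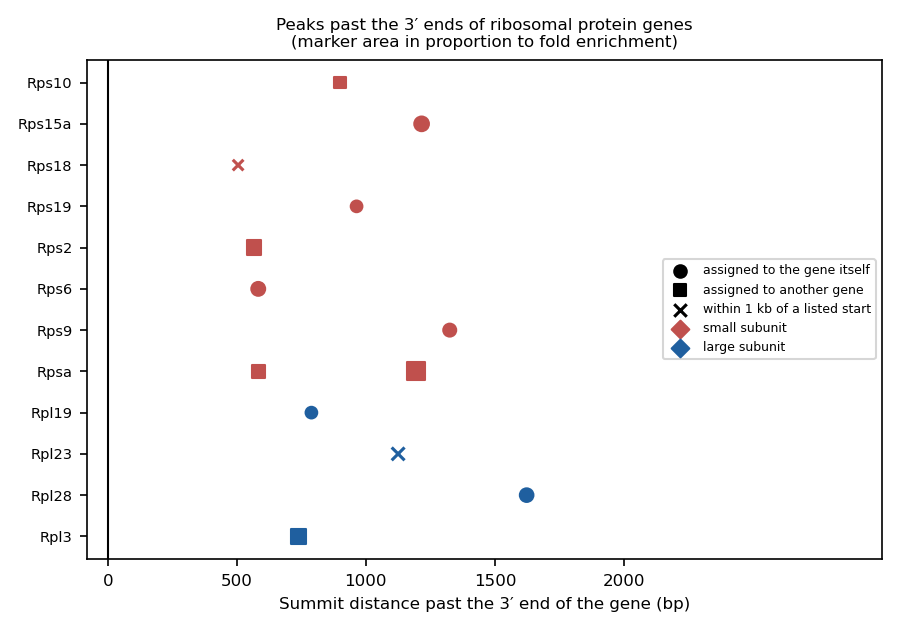
Distance of each summit past the 3′ end of a ribosomal protein gene (x axis, bp) for 12 of the 14 genes with one (rows), small subunit in red above large subunit in blue, with marker area in proportion to fold enrichment. Circles carry the gene's own symbol, squares another gene's, and crosses lie within 1 kb of a listed start; the largest square, at 1193 bp past Rpsa, has 6.12.

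Chromosome 7 carried many of these genes, and it was set apart only after the data were seen. Promoter peaks were assigned to 10 of its 14 ribosomal protein genes (71.4%), against 31 of 71 on other chromosomes (43.7%), while over all protein-coding genes of chromosome 7 the share was 7.29%. Of the 5 genes with a second peak, 4 lie there, among 11 ribosomal protein genes of chromosome 7 with a peak (36.4%). On other chromosomes it was 1 of 32 (3.12%). Over all protein-coding genes of chromosome 7 with a peak, the share with more than 1 was 16.8%.

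Ribosomal protein genes have many processed pseudogenes, copies made from their mRNAs. There were 12 peaks assigned to 10 pseudogenes with an Rpl or Rps symbol, at fold enrichments from 2.48 to 4.1, and 0 of the 12 overlapped the span of the pseudogene. Whether reads shared with such copies entered the peaks over the genes themselves was not tested.

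Of ribosomal proteins with other symbols, no peak was assigned to Fau, which encodes a ribosomal protein fused to a ubiquitin-like protein, or to Rack1, a scaffold on the small subunit. Among 16 other translation genes with TOP mRNAs, 7 had a promoter peak (43.8%, against 11.3% of all protein-coding genes), with a median fold enrichment of 2.93. Eef1a1, the elongation factor that brings aminoacyl-tRNA to the ribosome, had 6.43, the poly(A)-binding protein gene Pabpc1 4.45, Eef1b2 2.95 and Hnrnpa1 2.93. Eef1a1 had its promoter summit 78 bp downstream of the TSS and 2 further peaks at 408 and 1219 bp past its 3′ end, at 2.79 and 3.78.

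Among 32 genes of ribosome assembly, 8 had a promoter peak (25.0%, against the same 11.3%), with a median fold enrichment of 2.91. The box C/D snoRNP genes Nop58 and Nop56 led at 5.32 and 4.36, followed by the nucleolin gene Ncl at 3.65 and Ubtf, a factor for RNA polymerase I, at 2.91. For scale, the promoter peaks of Asns and of Atf4 itself had fold enrichments of 10.1 and 3.22. That of Atf4 lay within the range of the ribosomal protein genes.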

How the data were processed

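ATF4 ChIP-seq was done on 2 samples with 2 inputs. The submitters' processing notes name Trim Galore, Bowtie2, MACS2 and deepTools, without versions, and build mm10. How replicates and inputs entered peak calling, and whether replicates came from separate mice, was not given in the sources used here. Fold enrichment, −log10 q, summit, class, TSS and gene are the authors' deposited values, and other fields of the list were not used. The sample labels name spleen alone.

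Starts were raised by 1. Summit positions were taken along the assigned transcript's strand. All 3634 symbols were found in the RefSeq table of GRCm38.p6, and 21883 protein-coding genes on chromosomes 1 to 19, X and Y gave the background. Gene strand came from the promoter windows or the list, and 9 ribosomal protein genes had none. Listed starts were those of the windows and the list. Named were genes with a peak, with the 6 strongest and 3 weakest of each subunit in full. Some genes are counted in totals but not reported here by name or drawn in the plots by gene. Members and lists were chosen with earlier results of these data known. The parser and searches were tested on simulated data. Python 3.11.15, numpy 2.4.6, pandas 2.3.3, scipy 1.17.1 and matplotlib 3.10.9 were used.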

Additional observations from a re-analysis of the deposited data

How the results depend on the processing

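Of 34 alternative values computed for the counts and medians above, 27 stayed within 1.5 times the count or within the 95% binomial interval of the median. With peaks above the list's median fold enrichment alone, 13 ribosomal protein genes had a promoter peak, 5 of them small and 8 large subunit genes. With a peak of any assignment over the RefSeq gene start, 14 large subunit genes had one. By −log10 q the median of the strongest promoter peaks is 6.45, in another unit. From the RefSeq gene start, the median summit of all ribosomal promoter peaks moved to 66.5 bp from 32.5 bp. With a −log10 q of at least 3, 6 genes had a peak past the 3′ end. The causes were not tested. The counts past the 3′ end and the counts by chromosome were added after the data were seen. So were the count taking either end of genes of unknown strand and the q limit on peaks assigned to another gene. No paired analysis was possible because the list has no column per sample, and for the same reason no replicate could be left out.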
